A study of Mus musculus with 4 samples.

Results

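The genes that carry a cell through DNA replication and mitosis were examined in kidney and heart of septic mice with and without melatonin (MLT). The list held 45 genes, listed by symbol for their known roles, out of 55401 gene rows in each deposited file. It was chosen with earlier results of these data known. All 45 were matched to a single row. They were described as 21 S-phase genes, which license, copy and supply the DNA, and 24 mitotic genes, which condense, attach and part the chromosomes.

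Each of 4 groups of C57BL/6 mice gave 1 RNA-seq library: CLP kidney, CLP + MLT kidney, CLP heart and CLP + MLT heart. All 4 groups, the controls included, had undergone cecal ligation puncture (CLP), a surgery that opens the gut to the abdominal cavity and brings on sepsis. The kidneys came from male mice and were collected 24 h after CLP. The mice were aged 8 weeks before melatonin and surgery, and their age at collection is not stated. The CLP + MLT group had drunk melatonin at 25 μg/ml for 14 days before the surgery. The paper does not describe the hearts, and no source used here gives their age, dose or time. Nor is it stated how many mice stand behind a library, or what the 4 in the label CLP+MLT4 means. The spread between mice is unknown with 1 library per group, and every interval below is a 95% exact interval of the reads that covers counting error only.

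Adult kidney and heart are made up mostly of cells outside the cell cycle. In the G1 phase, cyclin D and cyclin E kinases release E2F transcription factors, which switch on the genes for replication origins, the MCM helicase and nucleotide supply. Later, the MuvB complex with B-Myb and FoxM1 switches on the mitotic genes, whose promoters often hold elements called the CHR and the CCAAT box. The inhibitor p21, encoded by Cdkn1a, holds the cyclin kinases down after stress. In the kidney, surviving tubule cells can enter the cycle after injury, whereas cardiomyocytes of the adult heart rarely divide.

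Promoters of 6 of the genes are shown because these genes were among those higher in the CLP + MLT kidney library below, and because they carry, or lack, the elements that part the S-phase from the mitotic group. The sequences are RefSeq promoters of build GRCm38.p6, the same assembly as the mm10 genome of the files, from 250 bases before to 50 bases after the start of the gene, printed on the strand of the gene. Capitals mark every match to an E2F word (TTTCCCGC, TTTGGCGC, TTTCGCGC or TTTGCCGC), a CHR word (TTTGAA or TTCGAA) or a CCAAT box (CCAAT), on either strand, so that ATTGG is a CCAAT box read backwards. The first 3 are MCM helicase genes of the S-phase group and the last 3 are mitotic genes.
Mcm3, chr1:20820263-20820562, minus strand: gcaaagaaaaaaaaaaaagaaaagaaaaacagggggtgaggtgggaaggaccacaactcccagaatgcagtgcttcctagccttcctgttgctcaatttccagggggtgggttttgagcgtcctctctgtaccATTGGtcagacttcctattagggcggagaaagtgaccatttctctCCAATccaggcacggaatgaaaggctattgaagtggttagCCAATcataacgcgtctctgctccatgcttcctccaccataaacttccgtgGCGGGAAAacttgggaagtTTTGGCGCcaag
Mcm5, chr8:75109259-75109558, plus strand: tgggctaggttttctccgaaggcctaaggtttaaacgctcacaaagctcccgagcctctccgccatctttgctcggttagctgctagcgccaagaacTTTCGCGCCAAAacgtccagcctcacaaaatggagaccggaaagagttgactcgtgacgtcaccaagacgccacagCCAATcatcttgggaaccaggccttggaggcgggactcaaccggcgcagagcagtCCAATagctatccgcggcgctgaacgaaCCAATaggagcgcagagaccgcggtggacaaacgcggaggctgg
Mcm6, chr1:128359656-128359955, minus strand: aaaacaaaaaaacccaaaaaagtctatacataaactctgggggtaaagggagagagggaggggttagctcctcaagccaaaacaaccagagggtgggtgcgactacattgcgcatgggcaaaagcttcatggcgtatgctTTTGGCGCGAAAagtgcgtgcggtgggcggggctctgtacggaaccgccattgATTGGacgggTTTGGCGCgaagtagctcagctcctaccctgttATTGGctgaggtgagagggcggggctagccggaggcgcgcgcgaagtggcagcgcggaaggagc
Top2a, chr11:99024140-99024439, minus strand: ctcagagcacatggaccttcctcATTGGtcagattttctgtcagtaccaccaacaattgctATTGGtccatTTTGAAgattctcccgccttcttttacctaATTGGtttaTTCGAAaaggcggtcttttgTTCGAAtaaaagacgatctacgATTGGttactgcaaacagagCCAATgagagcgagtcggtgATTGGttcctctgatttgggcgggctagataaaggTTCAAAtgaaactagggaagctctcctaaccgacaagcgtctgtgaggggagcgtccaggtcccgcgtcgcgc
Bub1b, chr2:118597961-118598260, plus strand: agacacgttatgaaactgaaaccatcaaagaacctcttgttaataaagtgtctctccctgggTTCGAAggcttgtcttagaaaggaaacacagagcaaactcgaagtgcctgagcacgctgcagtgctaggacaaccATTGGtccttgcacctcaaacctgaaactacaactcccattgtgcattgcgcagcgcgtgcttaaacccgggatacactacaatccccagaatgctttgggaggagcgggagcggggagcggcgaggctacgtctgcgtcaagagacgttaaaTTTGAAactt
Cenpe, chr3:135212313-135212612, plus strand: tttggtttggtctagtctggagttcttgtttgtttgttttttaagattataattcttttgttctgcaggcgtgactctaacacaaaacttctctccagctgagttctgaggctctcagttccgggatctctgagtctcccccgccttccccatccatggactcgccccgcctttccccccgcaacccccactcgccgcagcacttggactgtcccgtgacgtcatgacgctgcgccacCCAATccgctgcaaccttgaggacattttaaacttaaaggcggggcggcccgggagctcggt

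The 3 MCM promoters held 2, 2 and 3 E2F words and no CHR word. The E2F words of Mcm5 lay on opposite strands and shared bases, as did 2 of the 3 of Mcm6. The Top2a promoter held 4 CHR words and 6 CCAAT boxes, and that of Bub1b held 2 CHR words and 1 CCAAT box. In the Cenpe window only a single CCAAT box was found. Promoters were matched by symbol for 36 of the 45 genes, 39 promoters in all, and an E2F word was found in 7 of the 19 promoters of S-phase genes (36.8%) and 1 of the 20 of mitotic genes (5.00%). A CHR word was found in 3 S-phase promoters (15.8%) and 16 mitotic promoters (80.0%), and a CCAAT box in 12 (63.2%) and 18 (90.0%). Of all 32851 promoters of this length, 2.27% held an E2F word, 19.2% a CHR word and 37.4% a CCAAT box. Of the 11 promoters of genes higher past the thresholds in the CLP + MLT kidney library, 5 held an E2F word, 3 a CHR word and 9 a CCAAT box, against 3, 16 and 21 of the 28 promoters of the other members. Most of these called genes are S-phase genes, so this split and that by phase share their genes. A match of letters is a description and was not tested as a binding site.

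Reads counted on genes ran from 15883057 to 22927905 per library. The sums of tissue markers followed the labels: 8 cardiomyocyte genes summed to 31365 and 20734 CPM (TMM-scaled counts-per-million) in the heart libraries and to 10.8 and 16.9 in the kidney libraries. In kidney, mitochondrially encoded genes held 14.8% of the CLP and 24.2% of the CLP + MLT counts, and reads with more than 1 alignment, which were not counted, 23.6% and 32.6%. Within each tissue the libraries were therefore scaled with the TMM method before any ratio was formed. A gene was called higher or lower when the scaled counts differed by at least 1.5-fold and an exact binomial test of its reads passed the 0.01 limit, a test that compares 2 libraries and not the conditions. A mean of at least 10 counts in the tissue was required for testing.

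Levels were low in both organs, apart from a few S-phase genes. Scaled to merged exon length, as CPM per kilobase, the median level over the 21 S-phase genes was 1.51 in kidney and 0.758 in heart, and over the 24 mitotic genes 0.284 and 0.217. Libraries were scaled within a tissue only, so levels in kidney and heart stand side by side without a test. Cyclin D1 (Ccnd1), which starts the passage through G1, led in both tissues, with 44.0 in kidney and 6.48 in heart. There followed in kidney the replication clamp Pcna (11.4) and geminin (Gmnn, 8.32), which keeps origins from being licensed again, and in heart the helicase gene Mcm7 (6.05) and Pcna (5.04). At the lower end in kidney, the mitotic genes Cenpf and Bub1 stood at 0.0069 and 0.0122, and in heart Cdk1 and Ccnb1, the kinase and cyclin that start mitosis, at 0.0187 and 0.0291. The centromere histone gene Cenpa broke this order, since it stood at 4.69 in heart and 0.306 in kidney.

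**Figure D1:**
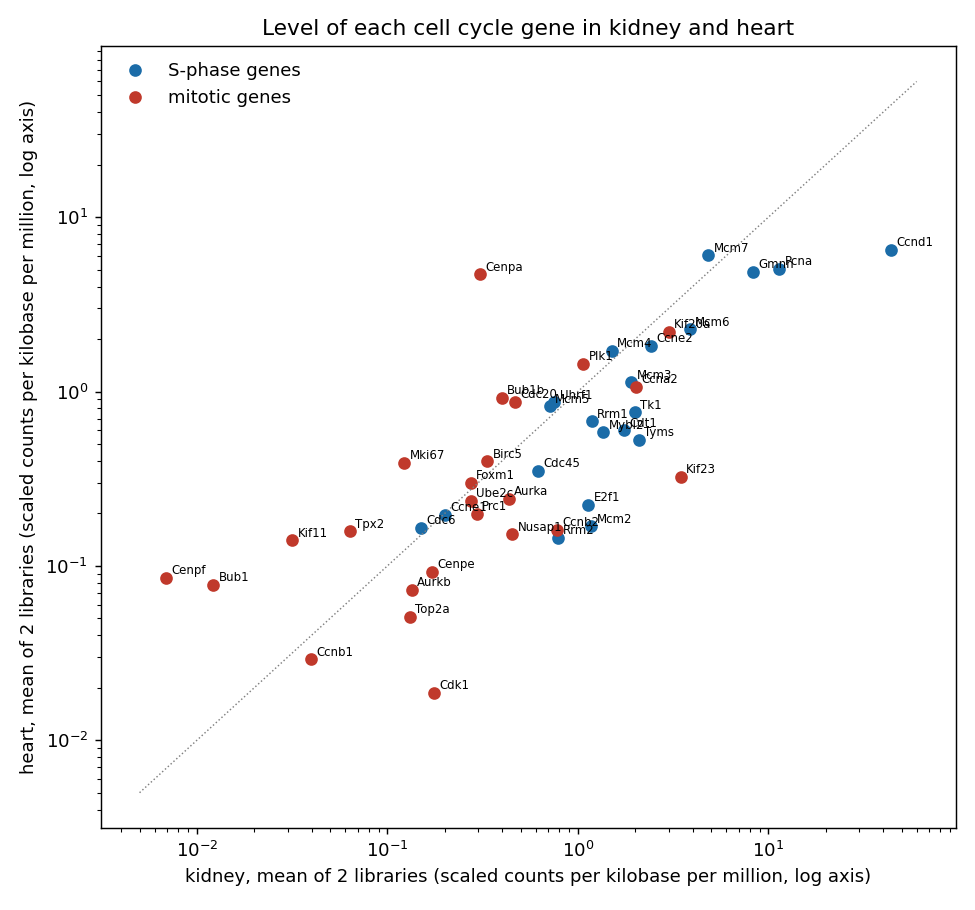
Level of each of the 45 genes in kidney (x axis) and heart (y axis), as the mean of the 2 libraries of a tissue in TMM-scaled CPM per kilobase of merged exon, both on log axes; S-phase genes are blue, mitotic genes red, and the dotted line marks equal levels. Most S-phase genes lie above 0.5 in kidney, and Cenpa stands well above the line.

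In kidney the cell cycle genes, chosen with earlier results of these data known, leaned to the CLP + MLT library. Of the 39 members tested, 12 were called higher (30.8%) and 0 lower, beside 7.8% called higher and 7.58% called lower of all 16932 genes tested. The calls were 8 of the 21 S-phase genes (38.1%) and 4 of the 18 mitotic genes tested (22.2%). Among the S-phase calls, Cdc6 passed the count limit only through the CLP + MLT library. The log2 ratio, CLP + MLT over CLP, had a median of 0.32 over the S-phase genes and 0.41 over the mitotic genes tested, beside 0.0029 over all genes. Among all 10780 genes with a mean between 11 and 554 counts, the range of the members other than Ccnd1, 9.34% were called higher and 8.89% lower.

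How firm these calls are depended on what was assumed beyond counting error. If mice were taken to vary by a coefficient of 0.2, edgeR's exact test left Top2a, Bub1b and Cenpa as the only members called. In all, 289 genes were then called higher and 330 lower. At 0.4 the test left 0 members, beside 23 genes higher and 67 lower in all. Scaling by library size alone moved the median of all genes to −0.19 and the share of calls that were higher from 50.7% to 23.5%. With this scaling, 8 members were called higher and 1, Tyms, lower, beside 727 and 2373 of all genes. The uncalled members Ccnd1, Mcm2, Mcm7, Rrm2, Kif20a, Nusap1 and Prc1 went from above to below 0.

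**Figure D2:**
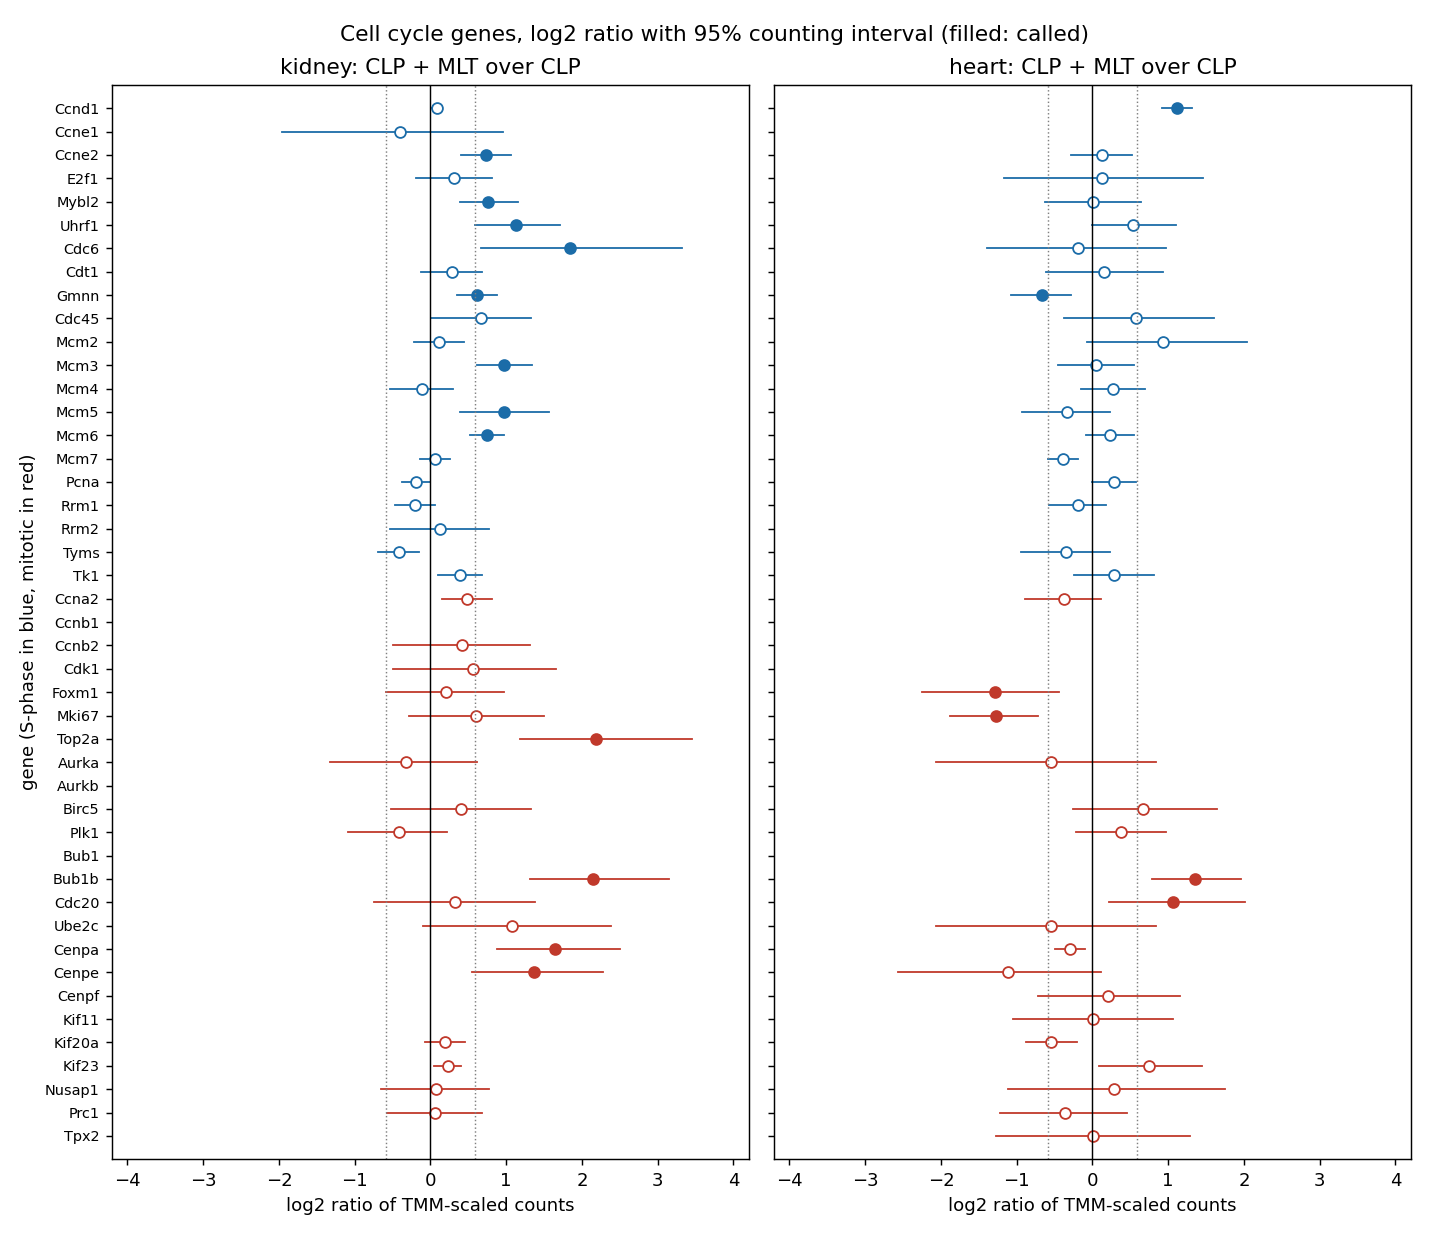
Log2 ratio of CLP + MLT over CLP for each member in kidney (left) and heart (right), 1 library per group; points are the ratios after TMM scaling, lines the 95% counting intervals, filled points the calls, and dotted lines the 1.5-fold limits. Members under the count limit have no point. The 12 filled points in kidney all lie right of 0, and in heart 3 lie on each side.

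**Figure D3:**
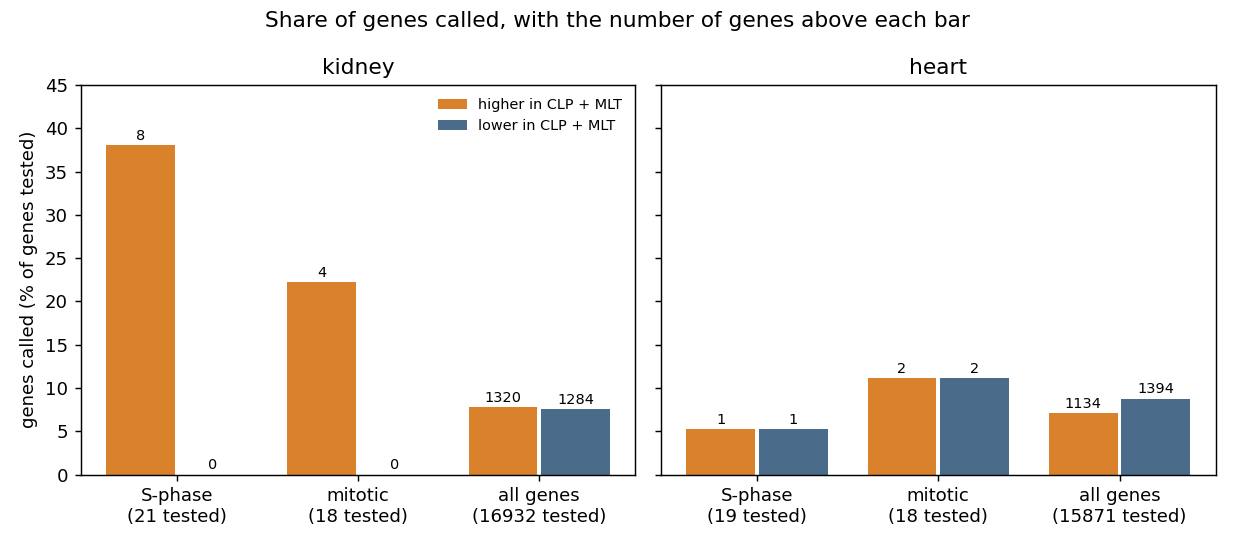
Percent of tested genes called higher (orange) or lower (blue) in the CLP + MLT library for S-phase genes, mitotic genes and all genes, in kidney (left) and heart (right), with the number of genes above each bar. In kidney 38.1% of S-phase and 22.2% of mitotic genes were called higher and none lower, and in heart 5.26% of S-phase and 11.1% of mitotic genes were called in each direction.

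Among the G1/S regulators in kidney, Ccnd1 (mm10, chr7:144929931-144939925, minus strand) had 4941 counts with CLP and 3282 with CLP + MLT, a scaled log2 ratio of 0.08 (0.02 to 0.15). It held most of the S-phase reads and was nearly level between the libraries. The cyclin E gene Ccne2, whose product starts replication, had 156 counts with CLP and 163 with CLP + MLT and a log2 ratio of 0.73 (0.41 to 1.06). Mybl2, which encodes B-Myb, had 114 and 122 counts and a log2 ratio of 0.77 (0.39 to 1.15). Uhrf1, which carries DNA methylation over to the new strand, had 49 and 68 counts and a log2 ratio of 1.13 (0.59 to 1.71). All 3 were thus higher in the CLP + MLT library once the depth was scaled. Ccne1 (15 and 7 counts) and E2f1 (78 and 61) were not called.

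Origins are licensed when Cdc6 and Cdt1 load the MCM ring, and geminin then holds Cdt1 back. Cdc6 had 8 counts with CLP and 19 with CLP + MLT, which gives a log2 ratio of 1.84 with a wide interval of 0.66 to 3.32. It passed the count limit only through the CLP + MLT library. Gmnn had 236 and 227 counts and a log2 ratio of 0.61 (0.35 to 0.88). Cdt1 (0.28) and Cdc45 (0.66), which joins the firing helicase, were higher without a call.

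The 6 MCM genes encode the ring that unwinds DNA as a single complex, yet their ratios were spread. Mcm3 had 118 counts with CLP and 146 with CLP + MLT, which gives a log2 ratio of 0.98 (0.62 to 1.34). Mcm5, with 47 and 58 counts, stood at 0.97 (0.40 to 1.56). Mcm6, with 330 and 347 counts, stood at 0.74 (0.52 to 0.97). The promoters of these 3 genes are printed above, and 1 of the 2 promoters of Mcm7, which was not called, held 2 E2F words as well. The other 3 stayed within the limits, with log2 ratios of 0.11 for Mcm2, −0.11 for Mcm4 and 0.06 (−0.14 to 0.26) for Mcm7, which had 513 and 336 counts. As a sum, the 6 genes went from 54.6 to 71.3 CPM, a ratio of 1.31 (1.21 to 1.42).

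The clamp and the enzymes of nucleotide supply had no calls. Pcna had 715 counts with CLP and 393 with CLP + MLT and a log2 ratio of −0.19 (−0.37 to −0.01). Tyms, which makes thymidylate, had 358 and 168 counts and the lowest S-phase value, −0.42 (−0.69 to −0.15). The ribonucleotide reductase subunits Rrm1 (−0.20) and Rrm2 (0.13) and thymidine kinase Tk1 (0.40) lay inside the limits too. The sum of these 5 genes was 0.912 of the CLP level (0.841 to 0.987).

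Of the mitotic genes, 6 were under the count limit in kidney, with at most 10 counts in a library: Ccnb1, Aurkb, Bub1, Cenpf, Kif11 and Tpx2. Cyclin A2 (Ccna2) had 168 and 147 counts and a log2 ratio of 0.48 (0.15 to 0.81), under the fold limit. Ccnb2 (0.41), Cdk1 (0.57) and Foxm1 (0.20), each with at most 36 counts, had intervals that spanned 0. The general proliferation marker Mki67 had 24 and 23 counts and a log2 ratio of 0.60 (−0.28 to 1.50), too few reads to show a difference of this size.

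The 4 mitotic calls in kidney belonged to chromosome condensation, the spindle checkpoint and the centromere. Topoisomerase IIα (Top2a), which untangles sister chromatids, had 10 and 30 counts and a log2 ratio of 2.19 (1.19 to 3.45). Bub1b, a checkpoint kinase that delays anaphase, had 15 and 43 counts and a log2 ratio of 2.15 (1.31 to 3.15). Cenpa (21 and 42 counts) stood at 1.64 (0.88 to 2.50) and the centromere motor gene Cenpe (20 and 33 counts) at 1.37 (0.55 to 2.27). All 4 calls rest on fewer than 50 counts in each library, and with a limit of a mean of 50 counts none of them was tested. The remaining mitotic genes tested ran from −0.41 for Plk1 to 1.08 for Ube2c.

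The kinesin genes Kif23 (618 and 455 counts, log2 ratio 0.23, 0.05 to 0.41) and Kif20a (298 and 214 counts, 0.19), whose proteins act in cytokinesis, held most of the mitotic reads in kidney. Summed over the 24 mitotic genes, the counts were 1532 and 1234, a scaled ratio of 1.28 (1.19 to 1.38), and 1.46 (1.30 to 1.64) without these 2. The S-phase sum was 8784 and 6145 counts, a ratio of 1.11 (1.08 to 1.15), and 1.19 (1.13 to 1.25) without Ccnd1. Kif20a shares 1271 of its 4338 exon bases with Cdc23 on the opposite strand. In all, 14 members share exon bases with another gene, 12 of them with a gene on the opposite strand, among them Ccne2 with Ints8 (log2 ratio 0.34 in kidney) and Ccna2 with Exosc9 (−0.23). No source used here states the strand setting of the counting, so reads of such a pair cannot be told apart where they overlap. Top2a shares bases only with a gene on its own strand that had 0 counts. Without the 14 genes, 7 of 16 S-phase and 3 of 9 mitotic genes were called higher in kidney and 0 lower. Of all genes tested in kidney, 7.8% were called higher and 7.58% lower.

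In heart the members went both ways. Of 37 tested, 3 were called higher (8.11%) and 3 lower (8.11%), beside 7.15% higher and 8.78% lower of all 15871 genes tested, so the shares were near the background. The median log2 ratio was 0.13 over the 19 S-phase genes and −0.14 over the 18 mitotic genes tested, beside 0.0023 over all genes. Without the genes that overlap another, the mitotic median turned to 0.01. At an assumed coefficient of variation of 0.2, the calls of Ccnd1 and Bub1b were left, beside 292 genes higher and 370 lower in all. At 0.4 no member call was left, beside 42 genes higher and 21 lower in all.

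Ccnd1 was the S-phase gene higher in the CLP + MLT heart library. It had 314 counts with CLP and 676 with CLP + MLT, which gives a ratio of 2.17 and a log2 interval of 0.92 to 1.31. Its level per length was 4.09 with CLP and 8.87 with CLP + MLT, below the 42.8 and 45.3 of the kidney libraries. Ccnd1 shares 1100 of its 4709 exon bases with LTO1 on the opposite strand (442 and 546 counts in heart, log2 ratio 0.31), so without overlapping genes 0 S-phase genes were called higher in heart. Gmnn was lower, with 143 and 89 counts and a log2 ratio of −0.67 (−1.07 to −0.28). The S-phase sum in heart was 2043 and 2341 counts, a ratio of 1.15 (1.09 to 1.22), and 0.97 (0.906 to 1.04) without Ccnd1.

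None of the MCM, clamp and nucleotide genes tested in heart was called. Mcm7 had 495 counts with CLP and 375 with CLP + MLT and a log2 ratio of −0.39 (−0.59 to −0.19), under the fold limit. Mcm6 (159 and 185 counts) stood at 0.23 (−0.09 to 0.54) and Pcna (178 and 215 counts) at 0.28 (−0.01 to 0.58). Both intervals included 0. Ccne1 and Rrm2 were under the count limit, Rrm2 with 2 and 11 counts.

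Among mitotic genes of the heart, Mki67 and Foxm1 were lower and Bub1b and Cdc20 higher. Mki67 had 91 counts with CLP and 37 with CLP + MLT, which gives a ratio of 0.413 and a log2 interval of −1.88 to −0.72. Foxm1, which drives mitotic transcription, had 40 and 16 counts and a log2 ratio of −1.29 (−2.25 to −0.44). Against these, Bub1b had 36 and 92 counts and a log2 ratio of 1.35 (0.79 to 1.96). Cdc20, which activates the anaphase promoting complex that Bub1b restrains, had 17 and 36 counts and a log2 ratio of 1.07 (0.22 to 2.02). Bub1b was the member called higher in both tissues, and 0 members were called lower in both. How many of all genes were called in both tissues is not given here.

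Cenpa, with 494 and 400 counts, held more reads in heart than any other mitotic gene and had a log2 ratio of −0.29 (−0.49 to −0.10). The mitotic sum was 1192 and 1037 counts, 0.876 of the CLP level (0.805 to 0.953), and 0.919 (0.824 to 1.02) without Cenpa. Ccnb1, Ccnb2, Cdk1, Top2a, Aurkb and Bub1 had at most 11 counts in a heart library and were not tested. Ccnb2 had 0 counts with CLP and 8 with CLP + MLT, a log2 ratio with a lower interval end of 0.78, and Cdk1 had 0 and 3. A count of 0 allows up to 0.184 CPM, the level of 3 counts, in the CLP heart library. The other 14 mitotic genes tested had no call and ran from −1.11 for Cenpe to 0.75 for Kif23.

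Of the 34 members tested in both tissues, 16 were higher in CLP + MLT in both, 3 lower in both, 12 higher in kidney and lower in heart, and 3 the reverse. Gmnn was called in opposite directions. No counts over all genes are set beside these, and the difference between the tissues was not tested.

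Other genes of the same pathway were counted from lists of known members, which were also chosen with earlier results of these data known. Of 38 further S-phase genes, 34 were tested in kidney, with 7 called higher, 1 lower and a median log2 ratio of 0.25. These are 20.6% and 2.94%, beside 7.8% and 7.58% of all genes. The 6 highest were Orc1, an origin recognition subunit (1.69), which with 7 and 15 counts passed the count limit only through the CLP + MLT library, the leading strand polymerase gene Pole (1.59), Gins3 of the firing helicase (1.30), the histone chaperone gene Chaf1b (1.00), the primase polymerase gene Pola1 (0.88) and the ligase gene Lig1 (0.86). The uracil glycosylase gene Ung was lower (−0.86). In heart 33 were tested, 3 called higher (9.09%) and 4 lower (12.1%), beside 7.15% and 8.78% of all genes, with a median of −0.02. Higher there were Cdca7 (1.25), the histone mRNA binding gene Slbp (0.67) and Atad2 (0.61), and the lower ones included the flap endonuclease gene Fen1 (−1.22), Rpa2 (−0.64) and Prim2 (−0.63).

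Of 44 further mitotic genes, 23 were tested in each tissue. In kidney 4 were called higher (17.4%) and 2 lower (8.70%), beside 7.8% and 7.58% of all genes, with a median of 0.21. The summed counts of this list had a ratio of 0.986 (0.939 to 1.04), while that of the 24 mitotic members was 1.28. Higher were Shcbp1 (1.60), which with 8 and 16 counts passed the count limit only through the CLP + MLT library, the condensin gene Ncaph (1.44), the cytokinesis gene Ect2 (1.09) and Cdca3 (0.81), and lower were the kinesin gene Kif4 (−0.97) and Spc25 (−0.94), a kinetochore gene. In heart 1 was higher and 1 lower (4.35% each), beside 7.15% and 8.78% of all genes, with a median of 0.01. The higher one, Cdca8 (1.76), had 5 and 18 counts and passed the count limit only through the CLP + MLT library, and the lower one was Kif22 (−1.34).

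Among 21 genes that brake the cycle, the p21 gene Cdkn1a was lower with CLP + MLT in both tissues. In kidney it had 560 counts with CLP and 107 with CLP + MLT, which gives a log2 ratio of −1.71 (−2.03 to −1.42). In heart it had 2516 counts with CLP and 628 with CLP + MLT and a log2 ratio of −1.99 (−2.12 to −1.87), from 154 to 38.8 CPM. No other brake was called lower in kidney, where 20 were tested with a median of 0.04, and the stress gene Gadd45g was called higher with 1533 and 2640 counts (1.46). In heart, where 19 were tested with a median of 0.04, the p18 gene Cdkn2c (−1.16) and Sesn2 (−0.74) were lower as well and 0 were higher. The brake calls are thus 1 higher and 1 lower of 20 in kidney (5.0% each), beside 7.8% and 7.58% of all genes. In heart they are 0 higher and 3 lower of 19 (15.8%), beside 7.15% and 8.78% of all genes.

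**Figure D4:**
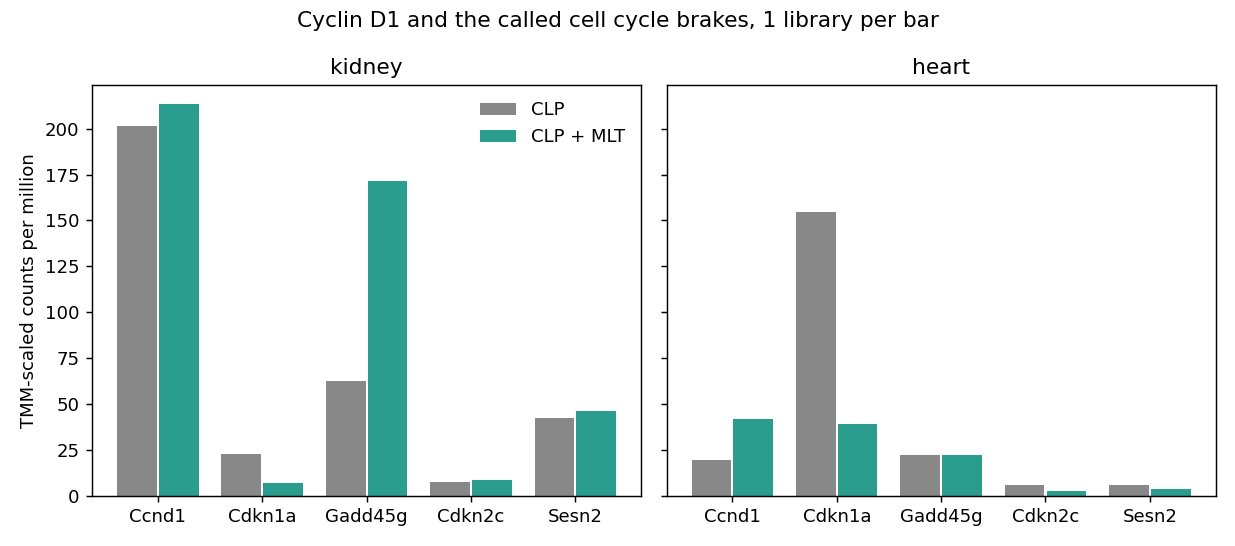
TMM-scaled CPM of Ccnd1 and of the 4 brake genes called in either tissue, in kidney (left) and heart (right), with 1 library per bar (grey CLP, green CLP + MLT) and no replicate, so no error bar is drawn. Cdkn1a is lower with CLP + MLT in both panels, from 154 to 38.8 in heart, while Ccnd1 is higher in heart and nearly level in kidney.

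Of 23 other G1 cyclins, kinases and E2F or DREAM factors, 22 were matched and 20 tested in each tissue. In kidney Lin54, a MuvB subunit, was called higher (0.69), and E2f3 (−0.78) and cyclin D2 (Ccnd2, −0.63) were lower, with a median of −0.06. In heart Mycn (0.97) and the repressor gene E2f7 (0.67) were higher and the E2F partner gene Tfdp2 (−0.62) lower, with a median of 0.19. These calls are 1 and 2 of 20 in kidney and 2 and 1 of 20 in heart, near the shares of all genes (7.8% and 7.58%, 7.15% and 8.78%).

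In whole tissue, a change in the share of a cell type and a change of RNA per cell cannot be told apart. Markers of other cell types differed between the same kidney libraries, where 7.8% of all genes tested were called higher and 7.58% lower. Each marker list is short, so a single call makes up a large share of it. Macrophage and monocyte markers summed to 139 CPM with CLP and 264 with CLP + MLT, with 3 of 10 called higher and 0 lower. Most of the rise lay in 2 of the called genes, Lyz2 (22.5 to 79.2 CPM, log2 ratio 1.81) and Csf1r (46.5 to 102 CPM, 1.13). Of the 10 tested, 9 had a ratio above 0, C1qa (0.09) and C1qc (0.09) only slightly. The 1 below 0 was Cd68 (−0.49, −0.92 to −0.08), without a call. Injured tubule markers went from 736 to 292 CPM, with 4 of 8 lower and 1 higher. Most of this fall lay in Lcn2 (463 to 104 CPM). Proximal tubule markers went from 6368 to 8791 CPM, with 3 of 8 higher and 3 lower. The largest rises in CPM were those of Slc27a2 (2961 to 4672) and Slc34a1 (1300 to 2017). The 3 lower were Slc5a2 (194 to 41.4 CPM), Slc5a12 (38.9 to 3.90) and Slc22a6 (884 to 570). Endothelial (279 and 212 CPM, 1 of 7 lower), fibroblast (151 and 137 CPM, 1 of 5 lower) and neutrophil markers (24.2 and 16.9 CPM, 3 of 7 lower, Ly6g at 0 in both) had 0 called higher. The 12 lymphocyte markers summed to 3.22 and 3.44 CPM with Ms4a1 at 0 in both and 1 of 2 tested (Cd79b) higher, and granulocyte precursor markers to 6 and 4 counts with Mpo, Elane, Ctsg and Ms4a3 at 0 in both. Erythroid markers summed to 96.9 and 126 CPM, with Slc4a1, which intercalated cells of the kidney also express, as the 1 of 6 called, which was higher. Of the cardiomyocyte markers, 3 of 7 tested were higher and 0 lower in kidney. Among the marker calls in kidney, Krt20 (78 and 8 counts), Ngp (53 and 2) and Ltf (25 and 1) passed the count limit only through the CLP library. The part of these cell types in the members' ratios was not tested.

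In heart the cardiomyocyte markers summed to 0.661 of the CLP level, with 3 of 8 called lower and 0 higher. Of all genes tested in heart, 7.15% were called higher and 8.78% lower, and the marker lists are short here too. Macrophage and monocyte markers summed to 268 and 321 CPM (3 of 11 higher, 1 lower), endothelial markers to 1121 and 1321 CPM (1 of 7 higher), fibroblast markers to 462 and 364 CPM (1 of 6 lower), neutrophil markers to 57.1 and 41.9 CPM (3 of 7 lower, Ly6g and Camp at 0 in both) and erythroid markers to 257 and 226 CPM (1 of 6 higher). Lymphocyte markers (41 and 48 counts, Cd3d, Cd3g, Cd79a, Ms4a1 and Cd5 at 0 in both) and granulocyte precursor markers (1 count each) were near 0. The injured tubule list, which in heart was mostly Lcn2, summed to 213 and 41.7 CPM, with 3 of 5 higher and 1 lower. Of the marker calls in heart, Cdh6 of this list (6 and 24 counts) and the erythroid Slc4a1 (7 and 21) passed the count limit only through the CLP + MLT library. Proximal tubule markers were present too, at 134 and 283 CPM with 5 of 8 called higher. In CPM of reads on genes, their sum was 1.92% of that in the matching kidney library with CLP and 3.51% with CLP + MLT. Over the 8 single markers these shares ran from 1.20% to 6.85% with CLP and from 2.56% to 29.8% with CLP + MLT. The part of kidney RNA or of cell types in the heart ratios, that of Ccnd1 included, was not tested.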

How the data were processed

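RNA-seq of 4 poly-A libraries was analysed. The authors trimmed reads with trim-galore and aligned them to mm10 with HISAT2 2.1.0, and the submitters' processing notes also name HTSeq. The authors deposited raw counts of reads per gene, not normalized. No source used here gives the counting version, strand setting or annotation. The 5 closing totals of each file, which name no gene and held 65.5% to 72.8% of its reads, were left out. Names, exon lengths and positions came from GENCODE M21 (GRCm38, the assembly of mm10), which named 54349 of 55401 rows.

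Libraries were scaled within each tissue by TMM (edgeR 4.0.16, R 4.3.3). Log2 ratios used a prior count of 0.5. Genes averaging 10 or more counts were tested, and called at a fold of at least 1.5 and an exact two-sided binomial p of at most 0.01, the limits the paper states for edgeR. No dispersion can be estimated with 1 library per group, and PCR copies are not independent molecules, so intervals (Clopper-Pearson) and floors cover counting error only. Motif words were searched in RefSeq promoters. Python 3.11.15, numpy 2.4.6, pandas 2.3.3, scipy 1.17.1 and matplotlib 3.10.9 were used. The calling rule was run on simulated counts with planted changes and counting error only. That run cannot check the calls against variation between mice. Alternatives were other scalings (library size, DESeq2 1.42.0 size factors, upper quartile, no mitochondrial or haemoglobin genes), no count limit or a mean of 50, a prior count of 5, a fold of 2 and edgeR's exact test at assumed variations of 0.2 and 0.4. Leaving out members that overlap another gene was added after the data were seen. By the rule for named genes, values are given for members called in either tissue and the 5 with the most counts in each, and for up to 6 called genes of each further pathway list. The members and lists were chosen with earlier results of these data known. Other genes named were chosen after their values were seen.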

Additional observations from a re-analysis of the deposited data

Results flagged for a closer look

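Gmnn was called in opposite directions in the 2 tissues, with a log2 ratio of CLP + MLT over CLP of 0.61 in kidney (236 and 227 counts) and −0.67 in heart (143 and 89 counts). Each value rests on 1 library per group, and the difference between the tissues was not tested. How often genes at large were called in opposite directions is not given here. Scaled by library size only, the kidney value was 0.42 and no longer called.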

How the results depend on the processing

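The medians of both gene groups kept their sign in kidney and heart under the 3 other scalings, both other count limits, the prior count of 5 and without mitochondrial and haemoglobin genes. Counts of calls moved more, over all genes as well. Of all genes in kidney, 1320 were called higher and 1284 lower. These became 727 and 2373 when scaled by library size only, and 563 and 622 at a fold of 2. At assumed variations of 0.2 and 0.4 they were 289 and 330, and 23 and 67. Of all genes in heart, 1134 were called higher and 1394 lower. These became 595 and 664 at a fold of 2, 292 and 370 at 0.2, and 42 and 21 at 0.4. In kidney, 8 S-phase genes were called higher, 4 when scaled by library size only (with 1, Tyms, lower), 2 at a fold of 2 and 0 at an assumed coefficient of variation of 0.2 or 0.4. The 4 mitotic calls became 0 with a mean of at least 50 counts, since none of the genes was tested then, and 0 at a variation of 0.4. In heart, the S-phase call higher became 0 at 0.4 and that lower 0 at a fold of 2 and at 0.2 and 0.4. The 2 mitotic calls higher became 1 with a mean of at least 50 counts, 1 at 0.2 and 0 at 0.4, and the 2 lower became 1, 0 and 0. Without members that overlap another gene, the heart calls became 0 higher for S-phase and 1 higher and 1 lower for mitotic genes, since fewer genes were counted, and the mitotic median in heart turned from −0.14 to 0.01. Without the count limit, 25626 genes were tested in kidney. In heart 4 members were then called higher, beside 1347 of all 23881 genes tested. No called member changed sign under any alternative. Of members not called in kidney, 7 changed sign when scaled by library size only. No paired analysis was possible because each group has 1 library, so no replicate could be left out either. Depth limits the mitotic genes, whose median mean count was 22.8 in kidney and 19.3 in heart.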
